A study of Mus musculus with 8 samples.

Results

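The regulators of mitochondrial biogenesis were followed in mouse hearts in which a gene had been deleted conditionally with the muscle creatine kinase (MCK) driver, and in hearts of wild-type littermates. The set held 10 genes, found by their platform symbol: the coactivators Ppargc1a and Ppargc1b, the nuclear factors Nrf1 and Gabpa, the nuclear receptors Esrra and Esrrb, and the mitochondrial transcription factors Tfam, Tfb1m, Tfb2m and Polrmt. All 10 were measured, by 24 of the 34945 probe sets that name a single gene, and stood among 18193 genes tested. The 4 groups were female wild-type (WT) hearts at 4 weeks, female knock-out (KO) hearts at 4 weeks, and the same genotypes at 10 weeks, with 2 mice and 2 arrays in each group. The labels name no further allele or treatment. The creatine kinase promoter is active in striated muscle, so that fibroblasts, vessels and blood cells of the heart are not its targets, and whole-heart RNA mixes them with cardiomyocytes. For every level given here, fewer cells of a type and less RNA per cell cannot be told apart. The submitters call the 4 mice of each age littermates and do not say whether the ages share a litter, so age cannot be told apart from a litter or a processing step that went with it.

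Mitochondria carry their own small genome, but nearly all of their proteins are encoded in the nucleus. PGC-1α and PGC-1β, the products of Ppargc1a and Ppargc1b, bind no DNA themselves. They act through DNA-bound factors such as the estrogen-related receptors, NRF1 and GABPA (also called NRF2α), which switch on nuclear genes for respiratory chain subunits and for the mitochondrial transcription machinery. That machinery consists of the RNA polymerase POLRMT, the DNA-packaging factor TFAM and TFB2M, which opens the promoter. TFB1M is a relative of TFB2M that methylates the small ribosomal RNA of the mitochondrion. The heart, which depends on oxidative metabolism, holds high levels of PGC-1α and of the estrogen-related receptors.

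The start regions of 4 members are shown here from RefSeq (GRCm38.p6), since binding sites for NRF1 and GABPA near the start are the textbook link between these regulators, and since of the family members Tfb1m and Tfb2m the first passed the test in KO hearts and the second did not. The windows ran from 250 bases before to 50 bases after each gene's start, and 9 of the 10 members had at least 1 window, 11 windows in all. Capitals mark a match to the NRF1 core CGCATGCG or to the ETS core CCGGAAGT, the kind of site that GABPA binds, searched on both strands. The Tfb1m stretch (chr17:3557756-3557855, minus strand), the Gabpa stretch (chr16:84835024-84835123, plus strand) and the Tfam stretch (chr10:71238045-71238144, minus strand) are the 100 bases ahead of the start, and the Tfb2m stretch (chr1:179546246-179546275, minus strand) holds a match 12 bases after the start.
Tfb1m: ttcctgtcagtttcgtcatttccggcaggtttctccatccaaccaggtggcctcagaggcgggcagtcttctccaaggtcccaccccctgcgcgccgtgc
Tfb2m: gctaggtcgttCGCATGCGccattcgtaat
Gabpa: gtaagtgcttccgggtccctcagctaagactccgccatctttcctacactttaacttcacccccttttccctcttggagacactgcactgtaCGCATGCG
Tfam: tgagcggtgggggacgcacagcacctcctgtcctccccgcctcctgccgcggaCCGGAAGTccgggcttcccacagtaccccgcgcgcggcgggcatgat
The NRF1 core was found in 2 of the 11 member windows (Tfb2m and Gabpa) and in 1.87% of 32851 windows of the same length. The ETS core was found in 1 member window (Tfam) and in 3.89% of all windows. The recognition sequence of the estrogen-related receptors, TCAAGGTCA, was in 0 of the 11 and in 0.423% of all windows. The Tfb1m window held none of the 3 letter strings as an exact match. Only exact matches were searched, so a site that differs by 1 letter was not marked. The printed Tfb1m and Gabpa stretches each hold a string 1 letter off the ETS core on the opposite strand. How many windows hold such near matches was not counted. A match is a description of the letters, and it was not tested whether a factor binds there. Whether matches went with the differences between KO and WT hearts was not tested either.

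One regulator, Tfb1m, fell in KO hearts at 10 weeks, to 0.411 of its WT level, at an age when 6.89% of all genes fell and 5.19% rose. The other 9 regulators did not pass the test at 10 weeks, and 0 of the 10 passed at 4 weeks, where 0.0275% of all genes did. Within the Ppargc1a gene, probe sets moved apart: the group mean of 3 was higher and that of 2 lower in 10-week KO hearts than in WT hearts. None of them passed alone, and the KO and WT arrays overlapped for each, while their within-array difference passed for 2 pairs that share a probe set. Levels are given as log2 of the deposited intensity, differences as KO minus WT in log2 units with their standard error, and a gene is said to have passed when its Benjamini-Hochberg adjusted p over all 18193 genes in limma's moderated test was under 0.05. Each gene was read by its brightest probe set unless another is named.

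**Figure D1:**
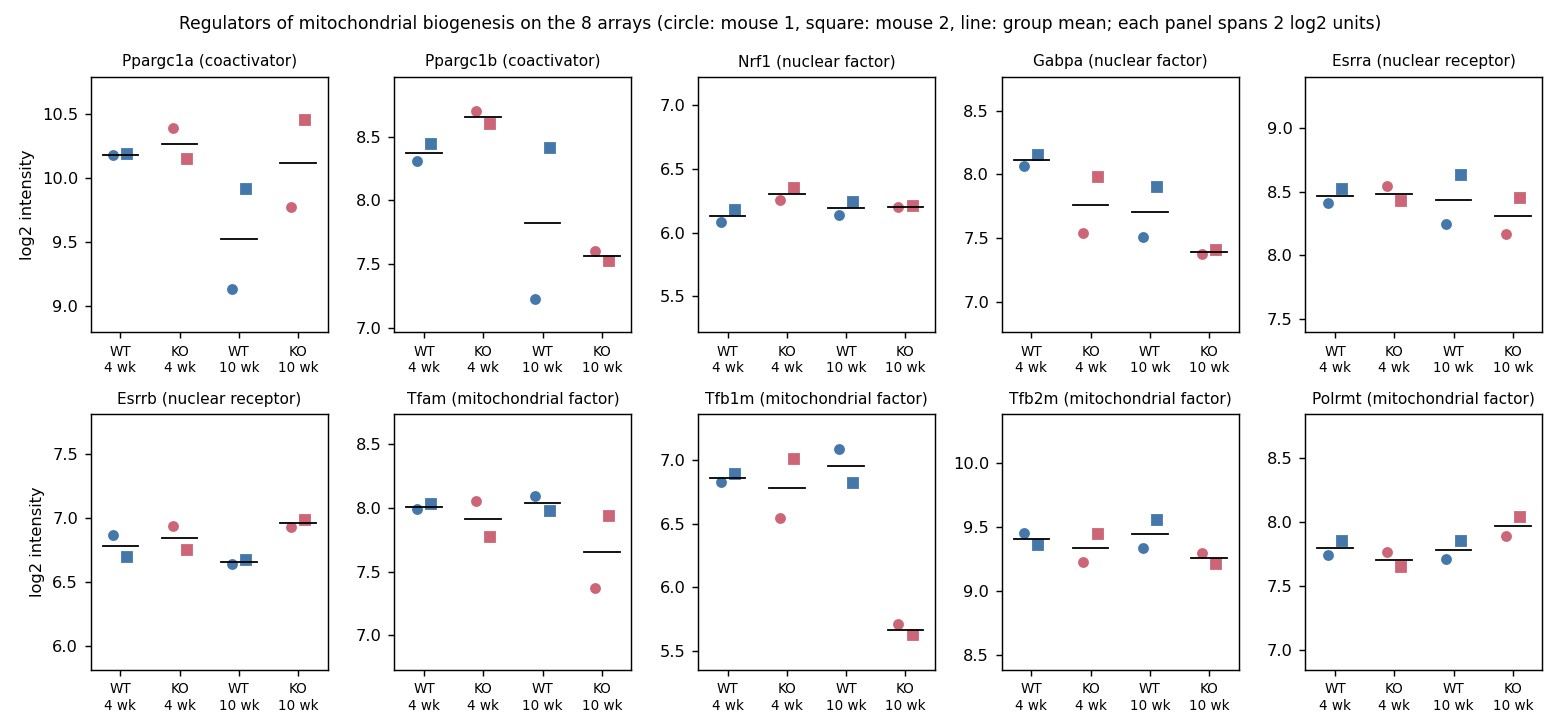
Log2 intensity (vertical axis) of the 10 regulators on each of the 8 arrays, grouped by genotype and age (horizontal axis), with a circle for mouse 1, a square for mouse 2 and a line for the group mean. Each panel spans 2 log2 units, and the 10-week KO arrays of Tfb1m, at 5.71 and 5.62, lie below every other array of that gene.

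Tfb1m read 6.83 and 6.89 in 4-week WT hearts, 6.55 and 7.004 in 4-week KO hearts, 7.09 and 6.81 in 10-week WT hearts, and 5.71 and 5.62 in 10-week KO hearts. The 10-week KO hearts were low and overlapped with no other group, while the 3 other groups overlapped. In the order of the group means came 10-week WT (6.95 ± 0.19, SD, n = 2), 4-week WT (6.86 ± 0.043) and 4-week KO (6.77 ± 0.32). These 3 means differed by less than the SD of 10-week WT or of 4-week KO, though by more than that of 4-week WT. The 10-week KO mean (5.67 ± 0.064) stood below them. The difference at 10 weeks was -1.28 ± 0.17, with a 95% interval from -1.66 to -0.91 and an adjusted p of 0.00142.

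The same call was made under all 19 alternative settings tried, with differences from -1.42 to -0.87 and adjusted p-values from 0.000647 to 0.0408. The second Tfb1m probe set, 1435924_at, read 6.16 and 5.52 in 10-week WT hearts and 5.12 and 4.83 in 10-week KO hearts. Its difference was -0.87 ± 0.23, with an adjusted p of 0.0451 among all probe sets tested singly. Both probe sets were thus lower on both KO arrays than on both WT arrays. The second one is dim, and its 10-week KO readings lay below the medians of those arrays, 5.22 and 5.18. The brighter one, 1449749_s_at, carries the suffix for probes shared between transcripts.

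At 4 weeks Tfb1m differed by -0.085 ± 0.17 (adjusted p = 0.999, limma), and the KO arrays lay on both sides of the WT arrays. The change of the KO effect from 4 to 10 weeks was -1.20 ± 0.24 (adjusted p = 0.0408), the only member among the 2.08% of genes that passed this test. That call was lost without 6 of the 8 arrays left out in turn (both 4-week WT mice, 4-week KO mouse 2, 10-week WT mouse 1 and both 10-week KO mice), with adjusted p-values up to 0.199 and differences from -1.43 to -0.97. It was also lost when shared-sequence probe sets were dropped (-0.74, adjusted p = 0.366). Between 4 and 10 weeks Tfb1m fell by 1.11 ± 0.17 in KO hearts (adjusted p = 0.00362), where 7.07% of genes fell and 3.42% rose with age. When shared-sequence probe sets were dropped, this difference was -0.46 and did not pass (adjusted p = 0.261). In WT hearts the difference between ages was 0.091 ± 0.17 (adjusted p = 0.769).

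Among 5436 genes that varied at least 0.5 times as much over the 8 arrays, the 3 whose mean-centred profile lay nearest to that of Tfb1m were Tfpi, Dguok and Pigyl. Their root mean square distance over the 8 arrays was 0.079, 0.080 and 0.096, while the Tfb1m profile itself had a root mean square of 0.54 around its mean. Dguok, the deoxyguanosine kinase that supplies nucleotides for mitochondrial DNA, read 8.36 and 8.14 in 10-week WT hearts and 7.11 and 7.14 in 10-week KO hearts. Tfpi, an inhibitor of blood clotting, read 9.19 and 8.83 against 7.79 and 7.59, and Pigyl read 8.91 and 8.51 against 7.39 and 7.41. These genes were picked for their likeness, so no test is given for it.

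**Figure D2:**
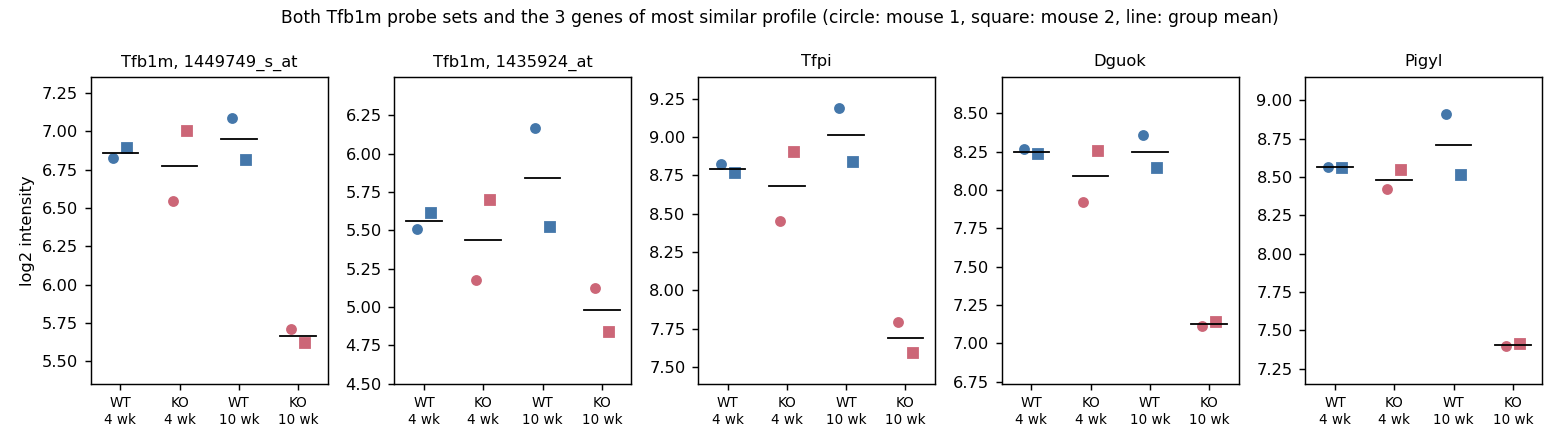
Log2 intensity (vertical axis) of both Tfb1m probe sets and of Tfpi, Dguok and Pigyl on the 8 arrays, with a circle for mouse 1, a square for mouse 2 and a line for the group mean. In all 5 panels both 10-week KO arrays are the lowest of the 8, and each panel spans 2 log2 units.

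The other mitochondrial factors moved by less. Tfb2m, the partner of POLRMT, read 9.33 and 9.56 in 10-week WT hearts and 9.30 and 9.21 in 10-week KO hearts, with 4-week arrays between 9.23 and 9.45. Its difference at 10 weeks was -0.19 ± 0.14 (adjusted p = 0.478), with an interval from -0.49 to 0.12. The difference between Tfb1m and Tfb2m was not itself tested.

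Tfam, which coats mitochondrial DNA and bends it at promoters, read 7.99 and 8.03 in 4-week WT, 8.05 and 7.77 in 4-week KO, 8.09 and 7.98 in 10-week WT, and 7.37 and 7.93 in 10-week KO hearts. The difference at 10 weeks, -0.38 ± 0.18 (adjusted p = 0.259), came with KO mice that lay 0.56 apart, only mouse 1 being clearly low. The dim second probe set, 1456215_at, went the other way, from 4.42 and 4.42 to 4.82 and 4.78, a difference of 0.38 ± 0.12 (adjusted p = 0.0806 among all probe sets).

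Polrmt read 7.71 and 7.85 in 10-week WT hearts and 7.89 and 8.04 in 10-week KO hearts. Both KO arrays were above both WT arrays, by 0.18 ± 0.13 on average, and the difference did not pass (adjusted p = 0.451). Its second probe set, 1437377_a_at, differed by 0.075 ± 0.25 and was lowest on the array of 10-week WT mouse 1, at 6.95.

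Ppargc1a read 10.18 and 10.19 in 4-week WT, 10.39 and 10.15 in 4-week KO, 9.13 and 9.92 in 10-week WT, and 9.78 and 10.46 in 10-week KO hearts. The mice of each 10-week group lay 0.79 and 0.68 apart, and the groups overlapped. The difference was 0.59 ± 0.27 at 10 weeks (adjusted p = 0.226, interval from -0.016 to 1.20) and 0.086 ± 0.27 at 4 weeks (adjusted p = 0.999). Without 10-week WT mouse 2 the difference at 10 weeks was 0.99, and the lowest value over the alternatives was 0.16. The value of 0.99 sets the KO mice against 10-week WT mouse 1 alone, which at 9.13 lay below both of them. Mouse 2, at 9.92, lay between the 10-week KO mice. In WT hearts Ppargc1a read 0.66 ± 0.27 lower at 10 than at 4 weeks (-0.66, adjusted p = 0.256). In that comparison 0.115% of all genes passed and 0 of the 10 members did. An unadjusted p under 0.05 was found for 2 members, Ppargc1a and Gabpa, and for 18.1% of all genes. Without 10-week WT mouse 2 the difference of Ppargc1a between ages in WT hearts was -1.06, and over the alternatives it ran from -1.06 to -0.27. Mouse 1 (9.13) lay further below the 4-week WT arrays (10.18 and 10.19) than mouse 2 (9.92), so the size of this difference depended on mouse 1.

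The 5 probe sets of Ppargc1a did not move together. Against WT at 10 weeks, 1460336_at read 0.59 higher, 1437751_at 0.38 higher and 1456395_at 0.73 higher, while 1434100_x_at differed by -0.44 and 1434099_at by -0.48, and none passed alone. Within an array, which takes out what is common to all probes of that array, the brightest probe set minus 1434099_at was 2.83 and 2.84 in 4-week WT, 2.995 and 2.79 in 4-week KO, 2.25 and 2.45 in 10-week WT, and 3.46 and 3.38 in 10-week KO hearts. The 10-week KO hearts were the highest and the 10-week WT hearts the lowest, with no overlap of either with another group.

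The difference of this within-array value between KO and WT at 10 weeks was 1.07 ± 0.15 (adjusted p = 0.00652), and against 1434100_x_at it was 1.04 ± 0.19 (adjusted p = 0.0169), adjusted over 16752 pairs of a brightest and a further probe set. In those pairs 3.76% passed. Both Ppargc1a pairs share the brightest probe set, so they are not independent results. For Tfam (1456215_at) and Esrrb (1436926_at) such differences were -0.76 ± 0.20 and 0.59 ± 0.16 and did not pass (adjusted p = 0.0738 and 0.0745). The brightest Ppargc1a probe set minus 1437751_at and minus 1456395_at differed by 0.21 ± 0.19 and -0.14 ± 0.14 and did not pass (adjusted p = 0.629 and 0.684). At 4 weeks the same values were 0.056 and 0.19 for the pairs that passed at 10 weeks (adjusted p = 1), and their change between ages did not pass (adjusted p = 0.135 and 0.311).

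The comparison of probe sets was chosen after their values were seen. The first pair passed in 11 and the second in 10 of 13 other settings. Without 10-week KO mouse 1 the differences were 1.03 (adjusted p = 0.0593) and 0.87 (adjusted p = 0.126), and without 10-week WT mouse 1 the second was 0.89 (adjusted p = 0.0631). A difference between probe sets shows that signals assigned to the gene changed unequally. Of the 2 lower probe sets, 1434100_x_at carries a suffix for probes of shared sequence and 1434099_at does not. The positions of the probes in the Ppargc1a transcripts were not used here, so no isoform is assigned.

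**Figure D3:**
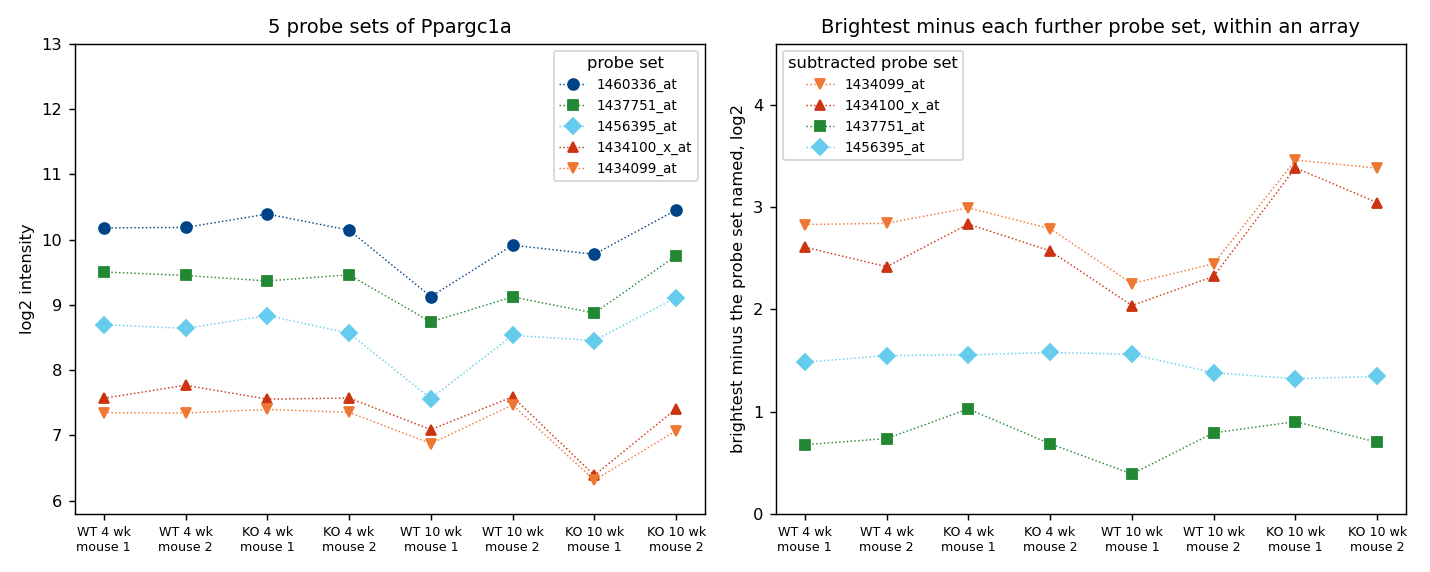
Left, log2 intensity (vertical axis) of the 5 Ppargc1a probe sets on each of the 8 arrays (horizontal axis). Right, log2 of 1460336_at minus log2 of each further probe set on the same array, where the upper traces rise from 2.25 and 2.45 in 10-week WT hearts to 3.46 and 3.38 in 10-week KO hearts for 1434099_at; dotted lines only join the points of a probe set.

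Ppargc1b, the other coactivator, read 8.31 and 8.44 in 4-week WT, 8.70 and 8.60 in 4-week KO, 7.23 and 8.41 in 10-week WT, and 7.60 and 7.52 in 10-week KO hearts. The 10-week WT mice lay 1.19 apart, the widest gap between mice of a group for any member, with the KO mice between them. The difference at 10 weeks was -0.26 ± 0.30 (adjusted p = 0.698). Without 10-week WT mouse 1 it was -0.85 (adjusted p = 0.00522), and without 10-week WT mouse 2 it was 0.34 (adjusted p = 0.152), so its direction rested on these arrays.

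In KO hearts Ppargc1b fell by 1.09 ± 0.30 between 4 and 10 weeks (adjusted p = 0.0494). With Tfb1m it made up the 2 of 10 members that fell there, where 7.07% of all genes fell and 3.42% rose. The call of Ppargc1b was kept in 9 of 19 alternatives and lost without either 4-week WT mouse, either 4-week KO mouse or either 10-week KO mouse. In WT hearts the difference between ages was -0.55 ± 0.30 (adjusted p = 0.333), 0.041 without 10-week WT mouse 1 and -1.15 without 10-week WT mouse 2 (adjusted p = 0.00461).

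None of the nuclear factors and receptors passed at either age. Gabpa, the DNA-binding subunit of NRF2, read 8.07 and 8.15 in 4-week WT, 7.54 and 7.98 in 4-week KO, 7.51 and 7.90 in 10-week WT, and 7.37 and 7.41 in 10-week KO hearts. Both KO arrays lay below both WT arrays at each age. The differences were -0.35 ± 0.18 at 4 weeks (adjusted p = 0.999) and -0.31 ± 0.18 at 10 weeks (adjusted p = 0.338), and the change between them was 0.037 ± 0.25. In WT hearts Gabpa read 0.41 lower at 10 than at 4 weeks (-0.41, adjusted p = 0.269). The second probe set, 1450665_at, differed by -0.13 at 10 weeks.

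Nrf1, the other nuclear respiratory factor, stayed between 6.09 and 6.35 on all 8 arrays. Its difference was 0.17 ± 0.12 at 4 weeks, where the KO arrays exceeded the WT arrays, and 0.015 ± 0.12 at 10 weeks (adjusted p = 0.964), with an interval from -0.25 to 0.28. The 3 further probe sets differed by 0.12, -0.17 and -0.11 at 10 weeks.

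Esrra, an estrogen-related receptor whose own gene PGC-1α induces, ranged from 8.17 to 8.63, and its 10-week groups overlapped, with a difference of -0.13 ± 0.16 (adjusted p = 0.721). Esrrb, a related receptor, read 6.64 and 6.68 in 10-week WT hearts and 6.93 and 6.98 in 10-week KO hearts. The KO arrays were above the WT arrays, and the difference of 0.30 ± 0.13 had an unadjusted p of 0.0398 and an adjusted p of 0.183. A second probe set, 1436926_at, gave the opposite sign, with 6.71 and 6.75 in WT and 6.35 and 6.53 in KO hearts, a difference of -0.29 ± 0.12 (adjusted p = 0.185 among all probe sets). No direction can therefore be given for Esrrb.

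Over the set, 1 of 10 members fell and 0 rose at 10 weeks. An unadjusted p under 0.05 was found for 2 of the 10 and for 23.6% of all genes. The median difference of the members was -0.16, beside 0.0048 over all genes. At 10 weeks both KO arrays lay below both WT arrays for 4 members (Gabpa, Tfam, Tfb1m and Tfb2m) and above them for 2 (Esrrb and Polrmt), where 23.5% of all genes lay below and 23.7% above. These counts rest on the brightest probe sets. Further probe sets of Gabpa, Tfam, Esrrb and Polrmt overlapped between genotypes or lay the other way. At 4 weeks 0 of 10 passed in limma and 0 had an unadjusted p under 0.05, which 3.73% of all genes had. Both 4-week KO arrays lay beyond the WT arrays for 3 members, Gabpa below and Ppargc1b and Nrf1 above, where 36.9% of all genes did so in one direction or the other.

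With 2 mice in a group the precision was limited. At 10 weeks the 95% intervals of the 9 members that did not pass reached down to -0.93 (Ppargc1b) and up to 1.20 (Ppargc1a), and 8 of the 9 held 0. At 4 weeks the intervals of all 10 held 0 and spanned -0.75 to 0.95. A change of the size found for Tfb1m lay outside each of those intervals.

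**Figure D4:**
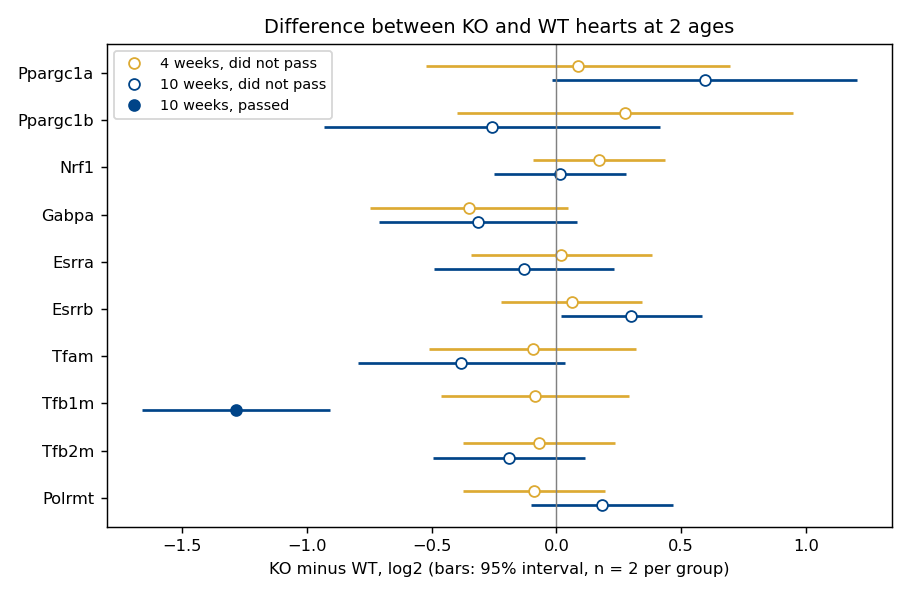
Difference between KO and WT hearts in log2 units (horizontal axis) for the 10 regulators at 4 and 10 weeks, with 95% intervals and 2 mice per group; filled points passed the test and open points did not. Tfb1m at 10 weeks, at -1.28, is the single filled point.

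Other genes of the pathway were read from 4 lists. At 4 weeks none of their genes passed (0 of 34, 0 of 19, 0 of 30 and 0 of 29 measured). Among other coactivators, corepressors and nuclear factors, 4 of 34 measured genes fell and 2 rose at 10 weeks (17.6% in all, where 6.89% of all genes fell and 5.19% rose), with a median of 0.054. Without 10-week KO mouse 1 none of them fell past the threshold and 1 rose, and without 10-week WT mouse 2 there were 2 that fell and 6 that rose. Without either 4-week WT mouse or without 10-week KO mouse 2 there were 2 that fell and 1 that rose, and 1 rose without either 4-week KO mouse.

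Myc, a growth regulator, rose by 1.33 ± 0.14, from 5.45 and 5.66 to 6.75 and 7.03 (adjusted p = 0.000513). Prmt1, an arginine methyltransferase that modifies PGC-1α, read 6.33 and 7.95 in 10-week WT and 8.76 and 8.78 in KO hearts (1.63 ± 0.40, adjusted p = 0.0262), and 0.83 without 10-week WT mouse 1. That call was kept in 2 of the 8 fits that left out an array. Ppara, the fatty acid receptor, fell by 0.75 ± 0.19 (adjusted p = 0.0308, kept in 1 of 8 such fits, and -0.46 without 10-week WT mouse 2). Yy1, a zinc finger partner of PGC-1α, fell by 0.71 ± 0.15 (adjusted p = 0.0127, lost without 10-week KO mouse 1). The mean of its 4 probe sets, of which 1 differed by 0.025, was -0.44 and did not pass (adjusted p = 0.0505). Foxo3 fell by 0.69 ± 0.17 (adjusted p = 0.0287, kept in 3 of 8). The fourth to fall was the deacetylase Sirt1, at -0.58 ± 0.14 (adjusted p = 0.0259). Pprc1, the third member of the PGC-1 family, read 0.60 ± 0.17 higher and did not pass (adjusted p = 0.0512). Esrrg, the third estrogen-related receptor, differed by -0.37 ± 0.13 (adjusted p = 0.115).

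Among genes of mitochondrial DNA copying and the nucleoid, 3 of 19 fell and 2 rose (26.3% in all, beside the same 6.89% and 5.19% of all genes), with a median of 0.045. Dguok fell by 1.12 ± 0.14 (adjusted p = 0.00133). Ssbp1, the single-strand binding protein, fell by 0.94 ± 0.21 (adjusted p = 0.0163), and was at -0.59 without 10-week WT mouse 1. Of its 5 probe sets 1 more fell (-1.21) and 3 differed by 0.087, 0.021 and -0.024, and the mean of all 5 was -0.41 and did not pass (adjusted p = 0.0852). Slc25a33, a pyrimidine nucleotide carrier, fell by 0.85 ± 0.22 (adjusted p = 0.0377), and was at -0.45 without that mouse. Lonp1, the protease that degrades TFAM, rose from 8.12 and 8.41 to 9.14 and 9.69, by 1.15 ± 0.19 (adjusted p = 0.00435). Atad3a, a nucleoid-associated ATPase, rose by 0.87 ± 0.23 (adjusted p = 0.0355), and was at 0.51 without 10-week WT mouse 1. The calls of Atad3a and Slc25a33 were each kept in 1 of the 8 fits that left out an array, and that of Ssbp1 was lost without either 10-week KO mouse. The helicase Twnk and the polymerase subunits Polg and Polg2 differed by -0.43, -0.29 and -0.37 and did not pass. The count of genes that rose was 1 when any array other than that of 10-week WT mouse 2 was left out, and the count that fell was 1 without either 10-week KO mouse.

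The next list held genes that elongate, process or modify mitochondrial RNA, and also the mitochondrial ribosomal protein genes Mrps12 and Mrpl12. Of its genes 11 of 30 (36.7%, beside 6.89% of all genes) fell at 10 weeks and 0 rose in limma, where 1 rose on renewed quantile normalization. The median was -0.30, and 26 of the 30 differences were below 0. The 11 were Slirp, Hsd17b10, Mrps12, Mterf2, Tefm, Fastk, Mterf3, Fastkd2, Fastkd1, Mrpl12 and Mrm2. Slirp, which stabilises mitochondrial messenger RNA with LRPPRC, read 9.90 and 8.91 in 10-week WT hearts and 8.04 and 7.92 in KO hearts (-1.42 ± 0.26, adjusted p = 0.00672), and was at -0.93 without 10-week WT mouse 1. Its call was lost without 10-week KO mouse 2 (adjusted p = 0.0521).

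Hsd17b10, a subunit of the enzyme that trims transfer RNA, fell by 1.36 ± 0.19 (adjusted p = 0.00199). Mrps12, a protein of the small ribosomal subunit, fell by 1.20 ± 0.14 (adjusted p = 0.000984). Tefm, the elongation factor of POLRMT, fell by 0.84 ± 0.18 (adjusted p = 0.0153). Nsun4, which modifies the same ribosomal RNA as TFB1M, differed by 0.10 ± 0.17 and Mettl15, another methyltransferase of that RNA, by -0.44 ± 0.16, and neither passed (adjusted p = 0.8 and 0.13). Without 10-week KO mouse 1 the count that fell was 4, and without 10-week KO mouse 2 it was 6.

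Among textbook targets of the PGC-1, estrogen-related receptor and NRF factors, 9 of 29 (31%, beside 6.89% of all genes) fell and 0 rose in limma, where 1 rose on renewed quantile normalization. The median was -0.36, and 24 of the 29 differences were below 0. Cox7a1, the heart and muscle form of a cytochrome oxidase subunit, fell by 2.13 ± 0.13, from 12.98 and 12.73 to 10.63 and 10.82 (adjusted p = 3.4e-05). Slc25a20, the carnitine-acylcarnitine carrier, fell by 0.79 ± 0.12 (adjusted p = 0.00349), and the complex I gene Ndufb5 fell by 0.77 ± 0.15 (adjusted p = 0.00926, lost without 10-week KO mouse 2). Cytochrome c (Cycs) differed by 0.026 ± 0.11 and the carrier Slc25a4 by -0.041 ± 0.12, and neither passed. Without 10-week KO mouse 1 the count was 5, and without 10-week KO mouse 2 it was 4. The lists were described by counts and medians, and no test set them against other genes.

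**Figure D5:**
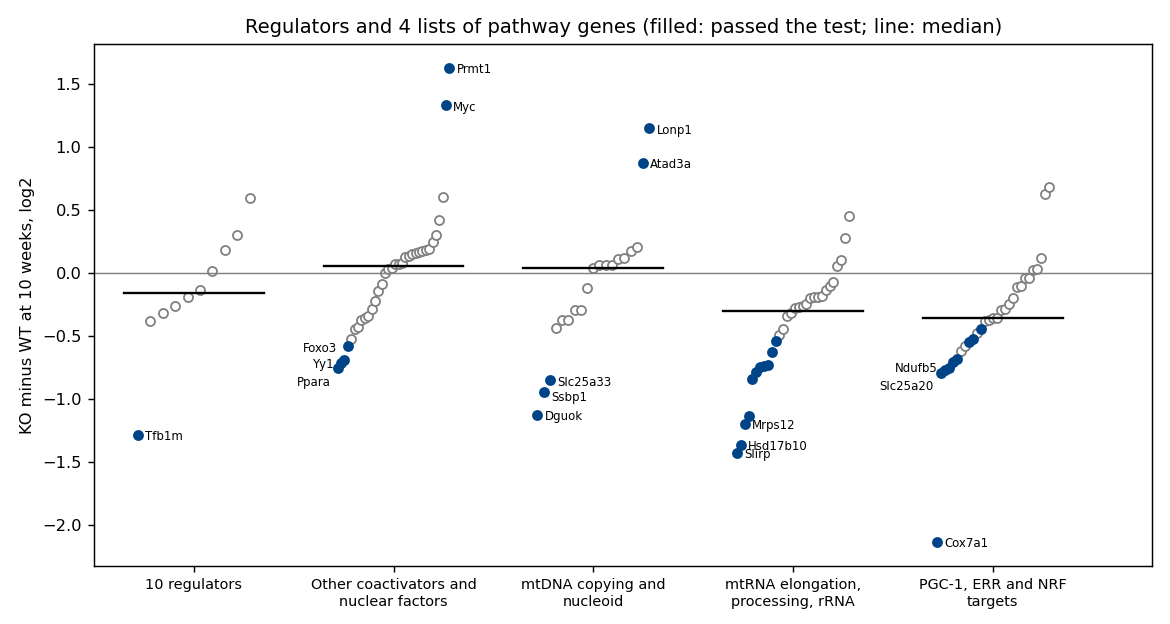
Difference between KO and WT hearts at 10 weeks in log2 units (vertical axis) for the 10 regulators and for the measured genes of 4 pathway lists (horizontal axis, genes sorted within a list); filled points passed the test, open points did not, and lines are list medians. The medians of the last 2 lists, at -0.30 and -0.36, lie below that of the 10 regulators, at -0.16.

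The cardiomyocyte gene Myh6 was bright on every array (13.16 to 13.96), and markers of some other cells moved at 10 weeks. The summed intensities of endothelial, smooth muscle and adipocyte markers overlapped between the genotypes at that age. The summed intensity of 6 cardiomyocyte markers was 50700 and 63680 in 10-week WT hearts and 49890 and 58250 in 10-week KO hearts, and 3 of the 6 (Ryr2, Pln and Tnni3) fell. The other 3, Actn2, Tnnt2 and Myh6, read 0.52, 0.41 and 0.14 higher in KO hearts and did not pass. That of 5 fibroblast markers was 4887 and 6563 against 10880 and 10630, with 4 of 5 higher, and that of 5 macrophage markers 2831 and 2946 against 4890 and 4285, with 3 of 5 higher. The 6 atrial markers summed to 16750 and 24970 in WT and 24160 and 23800 in KO hearts, with 2 of 6 lower (Sln and Stard10) and 1 higher (Nppa). Of these 6, 4 had a difference below 0, and the median was -1.08. At 4 weeks 0 of the 6 were below 0 and none passed, with a median of 1.27. The 4-week sums were 6646 and 9768 in WT and 13680 and 29280 in KO hearts. The change of the KO effect between ages passed for Sln (-4.15) and Stard10 (-2.18). The 6 skeletal muscle markers summed to 1468 and 1251 in 10-week WT and 593 and 588 in 10-week KO hearts, with 1 of 6 lower (Myl1) and 1 higher (Tnnt3). Of 4 kidney markers 1, Kap, was lower in 10-week KO than WT hearts and passed (-2.70 ± 0.63). On the array of 10-week WT mouse 1 the 4 kidney markers summed to 919, while the other 7 arrays lay between 97.8 and 296. The 5 liver markers summed to 4909 on that array and 584 on that of 10-week WT mouse 2, to 396 and 490 in 10-week KO hearts, and to between 327 and 4719 at 4 weeks. The part of these markers in the differences above was not tested. For 8 of the 10 members the level of 10-week WT mouse 1 was below that of mouse 2, with Tfb1m and Tfam as the exceptions, and the array stood apart from the other 7 on the second principal component, at -43.4 where the others lay between -4.2 and 13.9.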

How the data were processed

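RNA from 8 hearts was hybridised to Affymetrix mouse arrays. The deposited values are probe set intensities on a linear scale, for which the submitters' processing notes name GCOS 1.3 and RMA; RMA subtracts background, brings all arrays to one distribution and summarises the probes of a set. Order and settings are not given in the sources used here. Array medians ran from 34.3 to 37.4. Log2 was taken and 64 control probe sets were left out. Of the other 45037 probe sets 34945 named 1 gene, 932 several and 9160 none in the platform annotation. Of those naming 1 gene, 34741 were matched by Entrez number and took the RefSeq symbol, and the others kept the platform symbol. The brightest probe set stood for a gene. The targeted gene is not reported here.

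limma 3.58.1 (R 4.3.3) fitted 1 mean per group over all 8 arrays (4 residual degrees of freedom, 9.33 with moderation), with p-values adjusted by Benjamini and Hochberg over 18193 genes. The fit was tested on simulated data. The members, gene lists and tests were chosen with earlier results of these data known. All members are named, with the 3 genes of each list that passed with the largest difference in each direction at 10 weeks and the 3 profiles nearest to each member that passed; other genes named were chosen after their values were seen. Alternatives were other probe set rules, filters on dim genes, renewed normalization, array weights, smaller fits and each array left out.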

Additional observations from a re-analysis of the deposited data

Results flagged for a closer look

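The effect of the KO on Tfb1m differed between the ages. KO minus WT was -0.085 ± 0.17 at 4 weeks and -1.28 ± 0.17 at 10 weeks, and the difference of these effects was -1.20 ± 0.24 (adjusted p = 0.0408 in limma, over all genes). It was tested as an interaction term, passed in 9 of 18 alternatives and ranged from -1.43 to -0.74 over them. It was not tested whether a litter or a processing step that went with one age had a part in it. The KO difference of atrial markers also changed between the ages, and its part was not tested.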

How the results depend on the processing

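Of 403 alternative values for the 22 calls of named genes, 326 stayed past the threshold, 77 did not and 0 changed sign. Leaving out a 4-week array or fitting only the 10-week arrays cannot move a 10-week difference, so such settings say nothing about its sign. Tfb1m at 10 weeks passed in all 19 of its alternatives. The count of members that passed at 10 weeks was 1 and ranged from 1 to 2 with each array left out, that of the change between ages was 1 (0 to 1), that of 10 against 4 weeks in WT was 0 (0 to 2) and that in KO was 2 (1 to 2). Over all genes 2199 passed at 10 weeks (1154 to 3244), 3440 with all probe sets tested singly and 959 with only the 10-week arrays. Averaging probe sets and leaving out shared-sequence probe sets each gave 0 members for the change between ages and 1 for age in KO, as did centring on array medians; renewed quantile normalization and single probe sets gave 1 for age in KO.

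With each array left out, the lists' counts of lower and higher genes ran from 0 to 5 and 1 to 6 (coactivators and nuclear factors), 1 to 4 and 1 to 2 (DNA copying), 4 to 12 and 0 to 1 (RNA processing), and 4 to 10 and 0 to 1 (targets). With only the 10-week arrays the lower counts were 0, 1, 3 and 3, and 1 gene rose in each of the first 2 lists. Array weights left 2 lower coactivators, quantile normalization gave 4 higher ones and 1 higher gene in each of the last 2 lists, and median centring left 1 higher DNA copying gene.

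Directions that turned belonged to differences that did not pass. The mean of probe sets gave -0.0038 (Ppargc1a), -0.0095 (Esrra) and 0.012 (Tfam) at 4 weeks and -0.035 (Nrf1) and -0.0075 (Esrrb) at 10 weeks; without shared-sequence probe sets Esrrb was -0.29; Nrf1 was -0.014 with quantile normalization and -0.0013 with median centring, which gave -0.0024 for Esrra at 4 weeks. With each array left out the 4-week ranges were -0.038 to 0.21 (Ppargc1a), -0.041 to 0.080 (Esrra), -0.031 to 0.15 (Esrrb), -0.23 to 0.044 (Tfam), -0.31 to 0.14 (Tfb1m) and -0.18 to 0.039 (Tfb2m). At 10 weeks they were -0.32 to 0.062 (Esrra), -0.038 to 0.068 (Nrf1) and -0.85 to 0.34 (Ppargc1b), and for Ppargc1b -1.13 to 0.058 in the change between ages and -1.15 to 0.041 with age in WT. The cause was not tested.

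Mouse numbers are shared between genotypes, and the labels do not say that they pair mice. Same-numbered mice deviated together with correlations of 0.302 at 4 and 0.230 at 10 weeks. With the mouse number as a replicate block, 2 members passed at 10 weeks, Ppargc1a (0.59, adjusted p = 0.0145) joining Tfb1m, 1 gene rose in each of the last 2 lists, and 2841 genes passed in all. Signal over background limits the dim probe sets.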
